A study of Mus musculus with 12 samples.

Results

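The Bcl2 survival family is described here by the RNA of 10 genes, taken by gene symbol from a fixed list: Bcl2, Bcl2l1, Bcl2l2, Mcl1, Bcl2l11, Bad, Bid, Bak1, Bmf and Bnip3l. They are 10 of the 32121 genes in the count table, and all 10 had enough reads to be tested. The list was drawn up with earlier results of these data known, and no value sets a threshold for membership.

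Bulk RNA was sequenced from the spleens of 6 mice of the strain C57BL/6, with 2 pieces from each spleen and so 12 libraries. In 3 mice, called SB animals, the genotype was VEC-Cre, SB Transposase and onc2. Sleeping Beauty (SB) transposase is an enzyme that cuts and pastes DNA transposons, onc2 is a mutagenic transposon, and VEC-Cre is a Cre recombinase that the study used to aim the screen at endothelium. The 3 controls were wild type (WT) and are not given as carrying any of these alleles, so the effect of a single allele cannot be told apart from that of the 3 together. Each SB spleen is a separate screen animal, and its insertions are not analysed here. The labels read here state no ages. The stated aim was to see how alike the pieces of a spleen are, as a reading of its clonality.

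BCL2 family proteins set the threshold for the mitochondrial pathway of cell death. BCL2, BCL-XL (from Bcl2l1), BCL-W (from Bcl2l2) and MCL1 protect the outer mitochondrial membrane, while BAK (from Bak1) forms pores in it. BIM (from Bcl2l11), BAD, BID and BMF share only the BH3 segment with the others and promote death by binding the protectors or activating the pore formers, and BNIP3L, also called NIX, is a relative best known for clearing mitochondria from maturing red cells. In blood, BCL-XL is known for keeping late erythroid cells alive, BCL2 for mature lymphocytes, and MCL1 for stem cells, lymphocytes and granulocytes.

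The libraries held 14320833 to 22031026 counts. Levels are given as CPM, counts scaled to a common library size with TMM factors, and an animal's value is the mean of its 2 pieces. The spleens differed widely in cell type markers. The summed level of 10 B cell markers was 73.1 to 205 CPM in SB animals and 8758 to 9716 CPM in controls, and that of 12 T cell markers 31.6 to 159 against 1138 to 1266 CPM. The 12 erythroid markers summed to 1775, 12842 and 5144 CPM in SB animals 1, 2 and 3 and to 1504 to 3737 CPM in controls. The 12 macrophage markers summed to 1321, 17704 and 1532 CPM in SB animals 1, 2 and 3 and to 1828 to 2034 CPM in controls. The 10 megakaryocyte markers summed to 1533 to 5670 CPM in SB animals and 394 to 896 CPM in controls, and the 14 neutrophil markers to 700 to 2763 against 175 to 414 CPM. The 10 proliferation genes summed to 2211 to 4577 CPM in SB animals and 529 to 1073 CPM in controls, the 8 endothelial markers to 646 to 977 against 595 to 644 CPM, and the 9 stromal markers to 367 to 667 against 813 to 1002 CPM. Genes of a list did not all move alike. Of the 700 CPM of neutrophil markers in SB animal 1, Prtn3 held 419 CPM. In that animal Camp, at 2.71 CPM, and Ltf, at 3.53 CPM, were below every control animal (18.7 to 42.9 and 19.6 to 49.8 CPM). At an adjusted p under 0.05 in edgeR, 4 of the 14 neutrophil markers were higher in SB spleens and 0 were lower. Of the 8 endothelial markers 3 were higher and 1 was lower. Of the 9 stromal markers 1 was higher and 3 were lower, where 8.59% of all genes were higher and 9.75% lower. No gene of these 9 lists was at 0 in any library. The part of these differences in the results that follow was not tested. In bulk tissue, fewer cells of a type and less RNA per cell cannot be told apart. Xist, the X-inactivation RNA, was at 857 CPM or more in the pieces of SB animals 1 and 2 and at most 3.42 CPM in the other 8 libraries, so a difference of sex and one of genotype are partly mixed.

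Promoter sequence is shown for Bcl2l1 and Bcl2, because their RNA moved in opposite directions between the SB spleens, as given further on. The windows are the 250 bases before a start site on the gene's own strand, from RefSeq on the build GRCm38.p6, which lists 9 of the 10 members with 15 start sites among them. They were searched on both strands for the letters bound by GATA factors (AGATAA or TGATAA, each also with a final G in place of the last letter) and for a STAT palindrome (TTCNNNGAA), and matches are in capitals. Bcl2l1 has 3 start sites in this table. The window at chr2:152828490-152828739, on the minus strand, holds AGATAA with its first base at position -41, counted from the start site. The window at chr2:152831729-152831978, minus strand, and that of Bcl2 at chr1:106714291-106714540, minus strand, hold neither motif.
Bcl2l1, start with a GATA match: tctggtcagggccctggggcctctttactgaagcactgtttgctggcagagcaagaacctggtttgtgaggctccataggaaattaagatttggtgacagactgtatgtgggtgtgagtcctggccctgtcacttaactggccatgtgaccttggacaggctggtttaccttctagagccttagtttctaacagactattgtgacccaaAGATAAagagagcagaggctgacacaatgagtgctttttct
Bcl2l1, most upstream start: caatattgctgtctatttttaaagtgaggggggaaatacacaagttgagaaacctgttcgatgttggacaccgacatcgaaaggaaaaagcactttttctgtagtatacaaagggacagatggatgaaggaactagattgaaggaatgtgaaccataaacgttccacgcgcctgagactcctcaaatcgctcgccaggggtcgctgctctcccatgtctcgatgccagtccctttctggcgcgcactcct
Bcl2: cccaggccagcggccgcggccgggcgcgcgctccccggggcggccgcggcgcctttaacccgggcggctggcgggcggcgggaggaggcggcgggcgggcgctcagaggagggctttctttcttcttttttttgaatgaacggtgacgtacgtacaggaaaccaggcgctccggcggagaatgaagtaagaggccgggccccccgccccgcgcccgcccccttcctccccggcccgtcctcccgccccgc

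Of the 15 windows of the members, 2 held a GATA match, the one shown and the window of Bid, and 0 held the STAT letters. Among all 32851 windows of the same length, 26.5% held a GATA match and 7.02% the STAT letters, so the matches are no more frequent in the members than elsewhere. The windows also differ in base composition: G and C made up 48.4% of the Bcl2l1 window with the match and 74.8% of the Bcl2 window, against a median of 52.4% over all windows. The counts do not say which start site was used.

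The first comparison asked which members differed between SB and control spleens. With the 3 animals of each genotype as replicates, 0 of the 10 members passed an adjusted p of 0.05 in edgeR's quasi-likelihood test, where 18.3% of all 17328 tested genes did. At an unadjusted p under 0.05, 4 members differed, against 35.6% of all genes. The same 4 members, Mcl1, Bcl2l2, Bak1 and Bad, were those whose 6 SB libraries did not overlap the 6 control libraries, against 29.6% of all genes. Both shares of the members are near the background. The median log2 difference was -0.05 for the members and 0.11 for all genes.

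**Figure D1:**
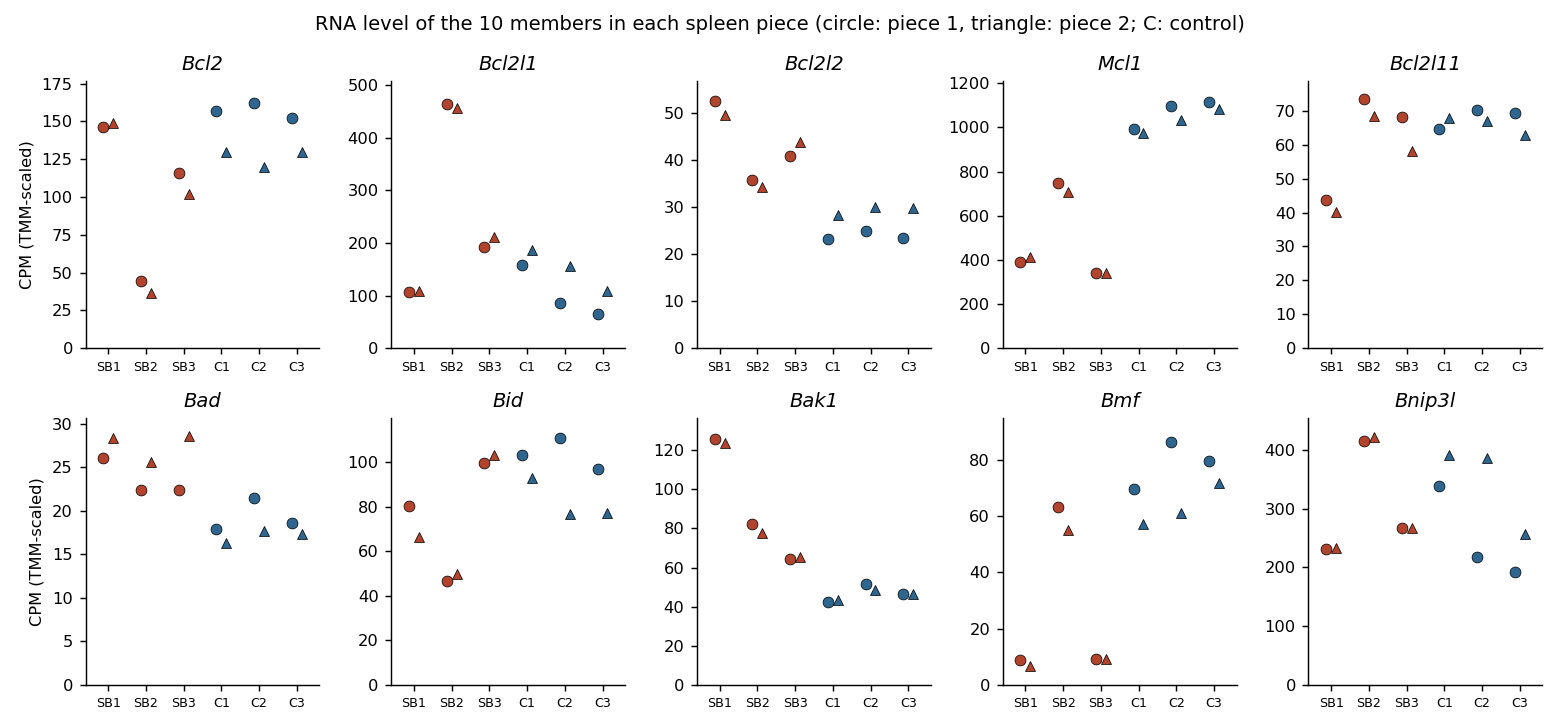
RNA level in CPM (vertical axes, each from 0) of the 10 members in each of the 12 spleen pieces, with circles for piece 1, triangles for piece 2, red for SB and blue for control animals. In Bmf SB animal 2 lies at 55.1 and 63.3 CPM, far above SB animals 1 and 3 at 6.54 to 9.19 CPM. The pieces of SB animal 1 still differ in Bmf, by log2 -0.44 (piece 2 minus piece 1). In Bad the pieces of SB animal 3, at 22.4 and 28.6 CPM, span the other SB animals' means.

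Mcl1, on mouse chromosome 3 at 95658788 to 95663176 (GRCm38), encodes a short-lived protector and gave the most RNA of the family. Its level was 390 and 413 CPM in the pieces of SB animal 1, 749 and 706 CPM in SB animal 2, and 341 and 340 CPM in SB animal 3. The 6 control pieces ran from 974 to 1114 CPM with a median of 1059. Every SB piece lay below every control piece, and SB animal 2 was the nearest to the controls. The animal means were 490 ± 208 CPM in SB and 1049 ± 59.5 CPM in controls (SD, n = 3 each), a log2 difference of -1.08 with a 95% interval of -1.86 to -0.31, at an adjusted p of 0.064 in edgeR. Mcl1 passed the threshold when SB animal 2 was left out, at a log2 difference of -1.48 (adjusted p 0.00307 in edgeR). Without SB animal 1 or SB animal 3 it was -0.96 and -0.88, at adjusted p values of 0.113 and 0.108.

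Bcl2l2, whose product BCL-W is a protector best known from the testis and nervous system, was at 52.6 and 49.6 CPM in the pieces of SB animal 1. It was at 35.7 and 34.3 CPM in SB animal 2 and at 40.8 and 43.9 CPM in SB animal 3. The control pieces ran from 23.2 to 30.1 CPM with a median of 26.7. All SB pieces were above all control pieces, and the groups were separated by only 34.3 against 30.1 CPM. The means were 42.8 ± 8.04 and 26.6 ± 0.907 CPM (SD, n = 3), a log2 difference of 0.71 (95% interval 0.24 to 1.18) at an adjusted p of 0.0532 in edgeR. Another gene model on the same strand, Gm20521, covers 13.3% of the Bcl2l2 exon bases, and how reads were divided between them is not given in the sources used here.

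Bcl2 itself, on chromosome 1 at 106538178 to 106714274, was split among the SB animals. It was at 146 and 149 CPM in the pieces of SB animal 1, 44.3 and 36.4 CPM in SB animal 2, and 116 and 102 CPM in SB animal 3, against 120 to 162 CPM in control pieces with a median of 141. SB animal 1 was within the control range, SB animal 3 just below it and SB animal 2 far below it. Across genotypes the log2 difference was -0.50 with an SE of 0.45 and an adjusted p of 0.465 in edgeR, so it did not exceed the spread between animals. It was -0.12 without SB animal 2 and -0.90 without SB animal 1, and passed in neither.

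Bcl2l1, on chromosome 2 at 152780668 to 152831728, showed the opposite order. It was at 107 and 109 CPM in SB animal 1, 464 and 456 CPM in SB animal 2, and 193 and 212 CPM in SB animal 3. Control pieces ran from 64.9 to 186 CPM with a median of 132. SB animal 1 was inside the control range and SB animals 2 and 3 above it. The log2 difference was 1.04 with an SE of 0.56 and an adjusted p of 0.234 in edgeR, and it was 0.32 without SB animal 2. The counts join the long transcript that encodes the protector and the short one that encodes a death-promoting form, so the forms cannot be told apart.

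Among the death-promoting members, Bak1 had 126 and 124 CPM in SB animal 1, 82.5 and 77.6 CPM in SB animal 2, and 64.6 and 65.3 CPM in SB animal 3. Control pieces had 42.5 to 51.7 CPM with a median of 46.6. All SB pieces were higher than all control pieces, and SB animal 1 stood highest. The means were 90 ± 31.3 and 46.5 ± 3.54 CPM (SD, n = 3), a log2 difference of 0.97 (95% interval 0.33 to 1.62) at an adjusted p of 0.0535 in edgeR. Bak1 passed the threshold with any 1 of the 3 SB animals left out, at log2 differences of 0.66 to 1.15. Ggnbp1, on the other strand, covers 18.2% of its exon bases, and these libraries carry no strand.

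Bad, whose product binds BCL2 and BCL-XL, was at 26 and 28.3 CPM in SB animal 1, 22.4 and 25.6 CPM in SB animal 2, and 22.4 and 28.6 CPM in SB animal 3. Control pieces ran from 16.3 to 21.4 CPM with a median of 17.8. The groups did not overlap, but the gap between them was 22.4 against 21.4 CPM. The log2 difference was 0.52 with an SE of 0.18 and an adjusted p of 0.0921 in edgeR. Gpr137, on the other strand, covers 20.5% of the Bad exon bases and had 6679 counts over all libraries against 4588 for Bad.

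Bmf, a sensor of detachment and stress, held the largest contrast among the animals. It was at 8.9 and 6.54 CPM in SB animal 1 and 9.19 and 9.03 CPM in SB animal 3, but at 63.3 and 55.1 CPM in SB animal 2. Control pieces ran from 57.1 to 86.5 CPM with a median of 70.7. SB animals 1 and 3 had 0.109 and 0.128 times the control mean, and SB animal 2 had 0.834 times. With that split inside the SB group, the log2 difference of -1.48 had an SE of 0.80 and an adjusted p of 0.237 in edgeR. With SB animal 2 left out it was -3.04 at an adjusted p of 0.00112 in edgeR. Without SB animal 1 or SB animal 3 it was nearer 0 and did not pass, at adjusted p values of 0.352 and 0.394.

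The other death-promoting members overlapped between genotypes. Bid, which links death receptors to mitochondria, was at 80.5 and 66.5 CPM in SB animal 1, 46.4 and 49.8 CPM in SB animal 2, and 99.4 and 103 CPM in SB animal 3, against 76.5 to 111 CPM in controls. SB animal 2 was the low one (log2 difference -0.30, SE 0.28, adjusted p 0.487 in edgeR, -0.06 without it and -0.59 without SB animal 3). Bcl2l11, the gene of BIM, was at 43.7 and 40.1 CPM in SB animal 1 and at 58.3 to 73.4 CPM in the other SB pieces, against 62.8 to 70.2 CPM in controls. Here SB animal 1 was the low one (log2 difference -0.17, SE 0.22, adjusted p 0.607 in edgeR, 0.02 without it). Bid shares 17.7% of its exon bases with Bcl2l13 on the other strand.

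Bnip3l, the mitophagy receptor, was at 231 and 233 CPM in SB animal 1, 416 and 422 CPM in SB animal 2, and at most 268 CPM in SB animal 3. Control pieces ran from 193 to 392 CPM with a median of 297. Only the pieces of SB animal 2 lay outside the control range. The log2 difference of 0.07 (95% interval -0.67 to 0.80, adjusted p 0.893 in edgeR) changed sign when SB animal 2 or control animal 3 was left out, to -0.22 and -0.12, and in piece 2 alone.

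**Figure D2:**
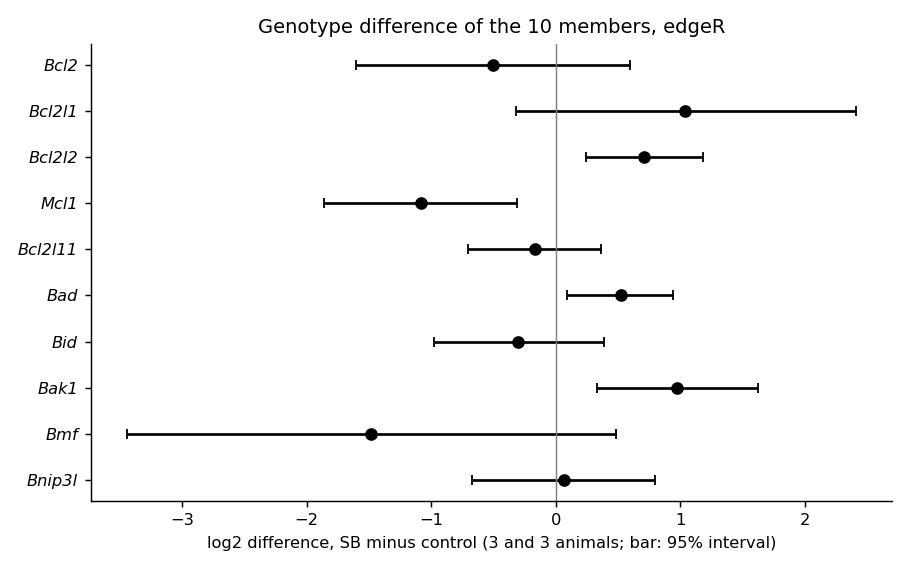
Log2 difference between 3 SB and 3 control animals (horizontal axis) for each member, with points for the edgeR estimate and bars for its 95% interval. The intervals of Bcl2l2, Mcl1, Bad and Bak1 leave out 0, though none passed after adjustment, and Bmf has the widest, from -3.44 to 0.48.

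The count of members called depended on the test and on the animals included. With all animals, edgeR called 18.3% of 17328 tested genes, and the share of all genes was not computed for the alternatives. DESeq2 called Mcl1, Bak1, Bcl2l2 and Bad among 5546 genes, and limma-voom on the 12 libraries called Mcl1, Bak1, Bmf and Bcl2l2 among 3997. Without SB animal 2, edgeR called Mcl1, Bak1, Bmf, Bcl2l2 and Bad, while the genes called in all went from 3178 to 6409. Without SB animal 1 or SB animal 3 it called Bak1 alone of the members, among 4362 and 3311 genes. Mcl1 alone was called with library totals as the only scaling, and Bcl2l2 alone in piece 1, among 2950 genes each. Without control animal 1, 2 or 3 the genes called fell to 818, 554 and 636, and 0 members were called.

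The second question was how far the SB spleens differed from each other. Between the 3 SB animals 9 of the 10 members differed in edgeR's F test, all but Bad (adjusted p 0.65), where 70.8% of all 17758 tested genes differed. Between the 3 control animals 0 of 10 passed where 0.557% of all genes passed. At an unadjusted p under 0.05 there were 2 members, Bcl2l1 and Bnip3l, against 6.76% of all genes. DESeq2 called 11498 genes between the SB animals and 223 between the controls. The highest SB animal exceeded the lowest 7.67 times for Bmf, 4.26 times for Bcl2l1 and 3.64 times for Bcl2, against 1.19, 1.98 and 1.02 times among control animals. The error in these tests is the spread between pieces of a spleen, so they compare these spleens and not genotypes.

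SB animal 2 stood apart in 8 members, against 54% of all genes. Relative to the mean of the other SB animals, its log2 level was higher by 2.82 for Bmf (SE 0.16), 1.64 for Bcl2l1 (SE 0.22), 0.98 for Mcl1 (SE 0.09), 0.75 for Bnip3l (SE 0.18) and 0.46 for Bcl2l11 (SE 0.10). Genes higher in this animal made up 29.1% of all genes and genes lower in it 25%. Its Bcl2 level fell by 1.65 (SE 0.15), that of Bid by 0.84 (SE 0.16) and that of Bcl2l2 by 0.41 (SE 0.14). The largest adjusted p of these 8 was 0.022 in edgeR. This spleen also had the highest sums of the SB animals for erythroid (12842 CPM), macrophage (17704 CPM), neutrophil (2763 CPM), B cell (205 CPM), T cell (159 CPM), stromal (667 CPM) and proliferation genes (4577 CPM), and the lowest for megakaryocyte (1533 CPM) and endothelial genes (646 CPM). The part of these in its values was not tested.

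SB animal 1 differed from the other SB animals in 8 members, against 53.9% of all genes. Bcl2 was higher by 1.14 (SE 0.14), Bak1 by 0.78 (SE 0.09) and Bcl2l2 by 0.40 (SE 0.13) on the log2 scale. Bmf fell by 1.59, Bcl2l1 by 1.51, Bcl2l11 by 0.69, Bnip3l by 0.54 and Mcl1 by 0.32. Of all genes, 26.1% were called higher and 27.8% lower in this animal. SB animal 3 differed in 5 members, against 46.3% of all genes. Its Bid was higher by 0.78 and its Bcl2 by 0.51, while Bmf fell by 1.22, Mcl1 by 0.66 and Bak1 by 0.61, with 23.2% of all genes called higher and 23.1% lower. SB animal 1 was therefore the spleen with the most Bcl2, Bcl2l2 and Bak1 RNA of the 3, SB animal 2 the one with the most Bcl2l1, Mcl1, Bmf and Bnip3l, and SB animal 3 the one with the most Bid. In each case both pieces of the leading spleen were above all pieces of the other SB spleens.

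**Figure D3:**
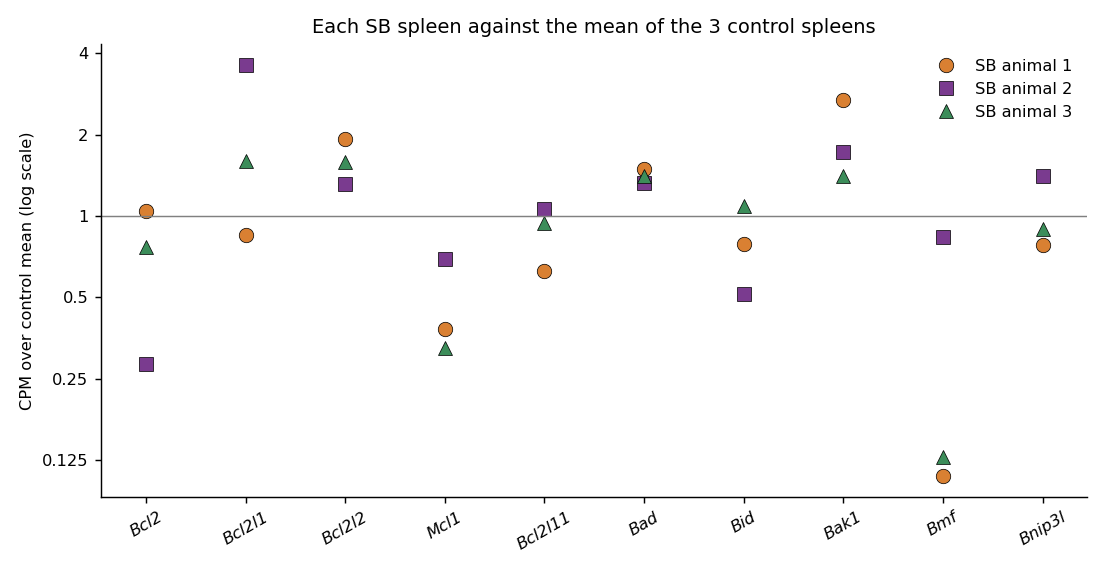
CPM of each SB spleen divided by the mean of the 3 control spleens (vertical axis, log scale) for the 10 members, with circles, squares and triangles for SB animals 1, 2 and 3. The 3 spleens agree in direction for Bcl2l2, Mcl1, Bad, Bak1 and Bmf, and lie on both sides of 1 for the others, as for Bcl2l1 at 0.853, 3.63 and 1.6 times the control mean.

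To compare levels between genes, counts were also divided by exon length (RPKM, over all exons of a gene). Mcl1 was the highest member in every animal and Bnip3l the second. Among the 4 protectors together, Mcl1 made up 83%, 86.7% and 88.9% of the summed RPKM in the control animals and 69.7%, 65.4% and 60.3% in SB animals 1 to 3. Bcl2l1 made up 10.8%, 7.33% and 5.24% in controls and 14%, 30.8% and 26.7% in SB animals. Both sets of shares did not overlap between genotypes. The shares are parts of one sum, so a lower level of Mcl1 raises the shares of the others. In SB animal 1 the level of Bcl2l1 was 23.6 RPKM, inside the control range of 18.9 to 37.6 RPKM, though its share was above theirs. These shares are a description and were not tested.

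Bcl2 took 4.25% to 4.53% of the protector RNA in controls, 9.53% and 7.21% in SB animals 1 and 3 and 1.35% in SB animal 2. In SB animal 3 the level of Bcl2, at 11.9 RPKM, was nonetheless below the 15.4 to 15.7 RPKM of controls. Bcl2l2 took 1.65% to 1.72% in controls and 6.79%, 2.41% and 5.75% in SB animals 1 to 3. The ratio of Bcl2l1 to Bcl2, per length, was 1.23 to 2.4 in controls, 1.47 in SB animal 1, 3.7 in SB animal 3 and 22.8 in SB animal 2. The sum of the 4 protectors was 347 to 362 RPKM in controls, 325 RPKM in SB animal 2 and 168 and 165 RPKM in SB animals 1 and 3. The sum of Bcl2l11, Bad, Bid, Bmf and Bak1 was 89.9, 76.3 and 75.1 RPKM in SB animals 1 to 3 and 72.5 to 77.4 RPKM in controls. The protector sum therefore varied more between these animals than the death-promoting sum. With the length of the longest transcript instead, the mean share of Bcl2l1 in SB animals was 34.8% in place of 23.8%, and Mcl1 stayed the highest member in all 6 animals. Bnip3l then stayed second in all but SB animal 2, where Bcl2l1 was second.

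**Figure D4:**
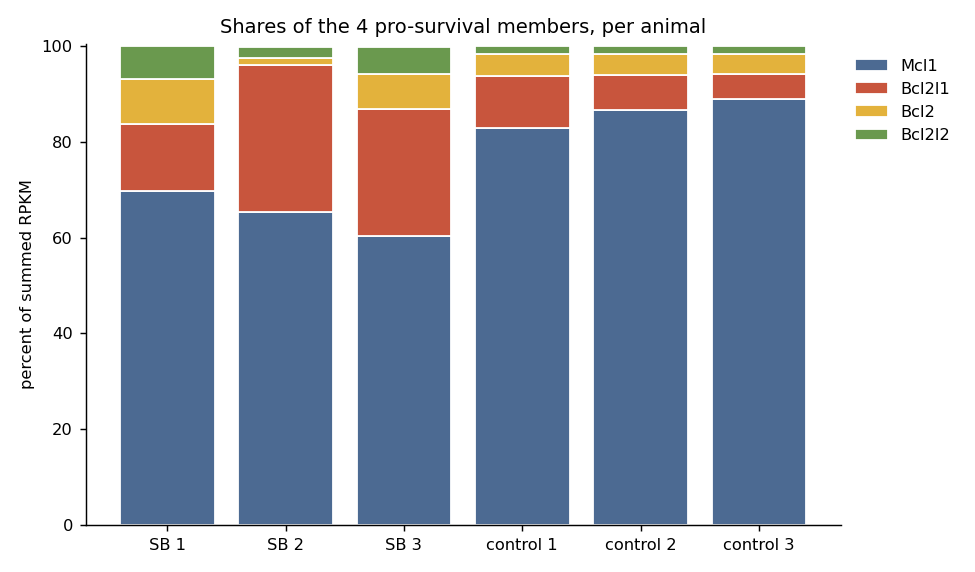
Share of each of the 4 protectors in their summed RPKM (vertical axis, percent) in each of the 6 animals, as stacked bars with no error since each bar is 1 animal. Mcl1 takes 83% to 88.9% in the controls and 60.3% to 69.7% in SB animals, and Bcl2 is thinnest in SB animal 2 at 1.35%.

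The third question was whether the pieces of a spleen were alike. Over all 6 animals, with the animal as a block, 0 of 10 members differed between piece 2 and piece 1 in edgeR, where 2.7% of all genes were called. At an unadjusted p under 0.05 there were 5 members, Bcl2, Bcl2l1, Bid, Bmf and Bnip3l, against 23.4% of genes. DESeq2 called 2 of the 10, Bcl2 and Bmf, among 1184 genes. In the SB animals alone 0 of 10 passed, where 0.0169% of genes did, and at an unadjusted p under 0.05 there was 1 member, Bad, against 20.4% of genes. In the controls 4 of 10 members differed between pieces, where 8.09% of genes did. The labels give no position in the spleen for either piece.

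In control pieces Bcl2l1 was higher in piece 2 than in piece 1, at 186 against 159 CPM in control 1, 156 against 85.7 CPM in control 2 and 109 against 64.9 CPM in control 3. All 3 controls moved the same way, by a log2 difference of 0.60 (SE 0.11, adjusted p 0.0101 in edgeR). Bnip3l was at 392 against 338 CPM, 387 against 217 CPM and 257 against 193 CPM in the same order. It too was higher in piece 2 of all 3 controls, by 0.48 (SE 0.10, adjusted p 0.0162 in edgeR). Genes called higher in piece 2 made up 5.3% of all genes, and 26.3% were higher in piece 2 of all 3 controls whatever their p.

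Bcl2 ran the other way, at 130 against 157 CPM, 120 against 162 CPM and 130 against 152 CPM in piece 2 against piece 1 of controls 1 to 3. It fell by 0.31 on the log2 scale (SE 0.08, adjusted p 0.0331 in edgeR). Bid was at 93 against 103 CPM, 76.5 against 111 CPM and 77.2 against 96.9 CPM, and fell by 0.34 (SE 0.09, adjusted p 0.0481 in edgeR). Both were lower in piece 2 of all 3 controls, where 2.78% of all genes were called lower and 26.3% were lower in all 3. Bmf, with a log2 difference of -0.32 (adjusted p 0.0519 in edgeR), and Bcl2l2, with 0.29 (adjusted p 0.0581), did not pass.

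The marker genes differed between these pieces as well. In controls, 9 of 12 erythroid and 11 of 12 macrophage markers were higher in piece 2, and the erythroid sum differed by log2 0.33, 1.58 and 1.39 in controls 1 to 3. Of the 10 B cell markers, 2 were lower in piece 2, and 0 of 12 T cell markers were called. Also called higher in piece 2 were 5 of 10 proliferation, 4 of 8 endothelial, 3 of 14 neutrophil and 2 of 10 megakaryocyte genes. Of 9 stromal genes 2 were higher and 1 was lower. Of all genes, 5.3% were called higher and 2.78% lower. The part of these differences in the member results was not tested. In a fit of the 6 control libraries alone, Bcl2l1 (0.61, adjusted p 0.0876 in edgeR) and Bnip3l (0.50, adjusted p 0.113) were not called, while Bcl2 and Bid were, and Bcl2l2 and Bmf were added. With control 2 or control 3 left out, 0 genes and 0 members were called, and with SB animal 3 left out Bcl2 and Bid were not called. Bcl2 was also not called without control 1, and without SB animal 1 the calls went up to 3250 genes, with Bmf and Bcl2l2 added among 6 members.

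The difference of the piece effect between genotypes was tested itself and passed for 0 of 10 members, where 1.23% of all genes passed. At an unadjusted p under 0.05 there were 5 members, against 16.8% of genes. For Bcl2l1 it was -0.56 on the log2 scale (SB minus control, SE 0.15, 95% interval -0.89 to -0.24, adjusted p 0.0868 in edgeR). For Bnip3l it was -0.48 (SE 0.14, adjusted p 0.109 in edgeR). Without control animal 1 both passed, at -0.76 and -0.62.

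**Figure D5:**
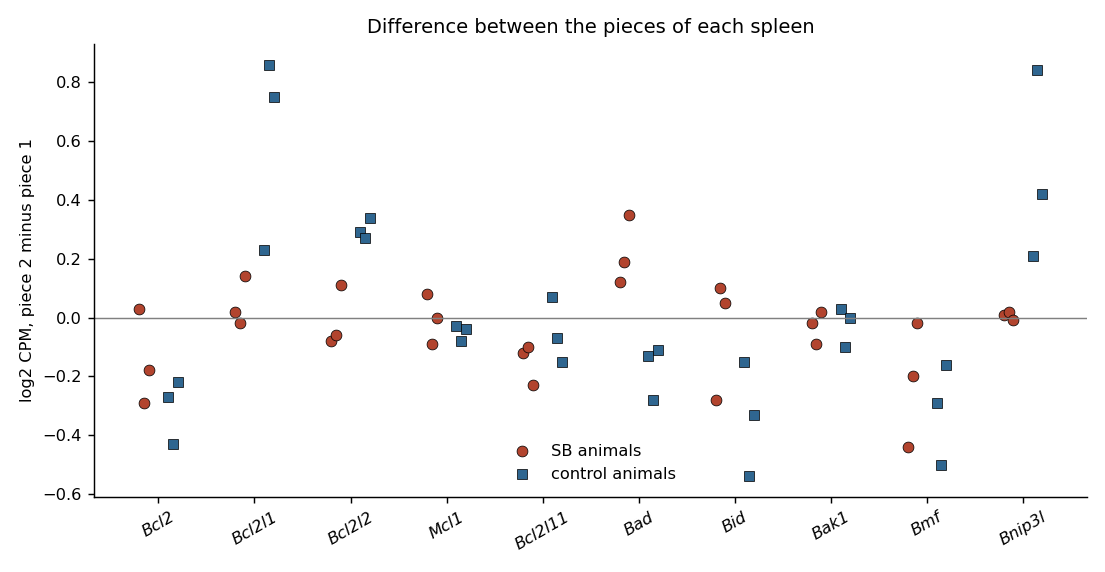
Log2 CPM of piece 2 minus piece 1 (vertical axis) for each member, with red circles for the 3 SB animals and blue squares for the 3 controls. Bcl2l1 and Bnip3l lie above 0 in all 3 controls, by up to 0.86 and 0.84, while the SB animals stay within -0.02 and 0.14.

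The genes whose log2 CPM followed each member most closely were ranked by Pearson's r over the 12 libraries, among 10054 genes. These libraries come from only 6 animals and share the large differences in marker genes, so r is a description. Genes with r over 0.9 numbered 595 for Mcl1, 520 for Bmf, 382 for Bcl2l2, 331 for Bak1 and 174 for Bcl2l11. They numbered 141 for Bcl2l1, 117 for Bcl2, 94 for Bad, 40 for Bid and 14 for Bnip3l. The genes named below are therefore only the first of many. Bcl2l1 ran with Dhrs11 and Cldn13 (r = 0.995 each). Cldn13 was at 24.5, 279 and 71.1 CPM in SB animals 1 to 3 and at a mean of 31 CPM in controls, the same order as Bcl2l1. Bnip3l ran with Specc1 (0.964), Rnf10 (0.961) and the autophagy protease gene Atg4a (0.942). Bcl2 ran with Plxnc1 (0.987), Orai2 (0.979) and Kptn (0.976).

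Bmf ran with Epb41l2 (0.995), Tapbp (0.994) and the MHC class II gene H2-Aa (0.992). H2-Aa was at 69.6 and 65.2 CPM in SB animals 1 and 3, 4408 CPM in SB animal 2 and a mean of 5340 CPM in controls, the same split as Bmf. Mcl1 ran with Sh2d2a, Rab30 and Tmem243 (0.995 each), Bak1 with Ap1s1 (0.986), Tomm20 and Cntln (0.982 each), and Bcl2l2 with Sapcd2 (0.974), Nfix (0.972) and Ptpre (0.970). Bcl2l11 ran with Camk1d (0.976), Gpr107 (0.971) and Rnf14 (0.968), Bid with Psph (0.959), Rps7 (0.953) and Cacfd1 (0.951), and Bad with Elp5 (0.945), Paqr7 and Pdap1 (0.944 each). Within the control libraries alone, r for the pairs named so far ran from 0.996 (Bcl2l1 with Dhrs11) down to 0.109 (Mcl1 with Sh2d2a) and -0.528 (Bak1 with Cntln). Among the members, r was -0.90 between Bcl2 and Bcl2l1, 0.84 between Bcl2l1 and Bnip3l and 0.96 between Mcl1 and Bmf. Other pairs were as strong, such as Bcl2l2 with Mcl1 and with Bmf (-0.90 each) and with Bak1 (0.88). For Bcl2 with Bcl2l1, r was -0.97 within the SB libraries and -0.52 within the control libraries. Mcl1 and Bmf still differed in size: SB animal 2 had 0.693 times the control mean for Mcl1 and 0.834 times for Bmf, and SB animal 3 had 0.325 and 0.128 times.

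Other genes of the pathway were read from lists, set against the 8.59% of all genes called higher and 9.75% called lower. Of the apoptosome and caspase genes, 4 of 12 rose in SB spleens and 0 fell. Apaf1, the scaffold that activates caspase 9, was at 112 ± 7 against 52.9 ± 2.74 CPM (SD, n = 3, log2 1.10, adjusted p 0.00692 in edgeR). The median over the 12 genes was 0.32, against 0.11 over all genes.

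Of 9 inhibitor of apoptosis genes, 1 rose and 2 fell. Birc3, which encodes a ubiquitin ligase of NF-kB signalling, was at 59.3 ± 19 against 216 ± 6.54 CPM (log2 -1.85, adjusted p 0.00794 in edgeR). Its relative Birc2 was at 108 ± 8.32 against 163 ± 2.45 CPM (log2 -0.58, adjusted p 0.0343), and Naip6 was higher by 1.23 (adjusted p 0.0232 in edgeR). Naip6 has near-identical neighbours, so its reads are uncertain.

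Of 13 other Bcl2 family genes tested, 1 rose and 0 fell. This was Bcl2l13, a mitophagy receptor, with a log2 difference of 1.15 (adjusted p 0.0443 in edgeR), and it is the gene that overlaps Bid. Bax, the other main pore former, was at 94.8 ± 22.8 against 71.5 ± 2.48 CPM (SD, n = 3) and did not pass (adjusted p 0.199 in edgeR). Bbc3, the gene of the p53-induced PUMA, was at 30.5, 21.1 and 86.9 CPM in SB animals 1 to 3 and 14.5 to 16.3 CPM in controls (adjusted p 0.0908 in edgeR). Pmaip1, the gene of NOXA, which targets MCL1, was at 167, 29.5 and 6.42 CPM in SB animals 1 to 3 and 36 to 40.7 CPM in controls. SB animal 1 was thus above the controls and SB animals 2 and 3 below. Bax, Bbc3 and Pmaip1 were chosen after their values were seen.

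Of 9 death receptor genes, 2 rose and 0 fell: Tnfrsf1a, the main TNF receptor (log2 1.47, adjusted p 0.0379 in edgeR), and the kinase gene Ripk1 (log2 0.95, adjusted p 0.0235). Of 17 mitophagy genes, 1 rose, the kinase gene Ulk1 (log2 0.86, adjusted p 0.0421 in edgeR). Of 5 tested genes for the turnover of MCL1 protein, 0 passed. Of the genes named from these lists with a call, only Birc3 kept it without control animal 1 or 3, and it missed it without control animal 2, at an adjusted p of 0.0501 in edgeR. The others lost their call with any 1 control animal left out. Without SB animal 1 the calls of Tnfrsf1a and Ulk1 were lost, and without SB animal 3 that of Bcl2l13. All of them kept their direction with an animal left out. Bcl2l13 and Birc2 also lost their calls with library totals as the only scaling, with no low-count filter and in piece 2 alone, and Ulk1 in the last pair of these.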

How the data were processed

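Spleen RNA was read by poly-A sequencing that keeps no strand, per the labels' protocols. The deposited table gives raw counts of reads per Ensembl gene. They are whole numbers, and nothing in them points to a scaling by the authors. The submitters' processing notes name STAR 2.5.3a, limma, mm10 and GRCm38 without saying what each did. How reads were counted is not given in the sources used here. Identifiers of 32026 of the 32121 genes were found in GENCODE mouse release M21, and the 95 others held no more than 0.0271% of any library.

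The members and lists were chosen with earlier results of these data known. Groups came from the genotype labels, and pieces 1 and 2 of a spleen were paired by the animal in the titles, with sections A and B of controls as pieces 1 and 2. For genotype, the counts of an animal's pieces were summed and tested with edgeR 4.0.16 in R 4.3.3 (TMM, filterByExpr, robust quasi-likelihood fit, two-sided, Benjamini-Hochberg over all genes, called at an adjusted p under 0.05). Pieces were tested over 12 libraries with the animal as a block, and animals with 1 coefficient each. Standard errors (SE) come from the F statistic. The tests were also run on simulated counts, and the outcome is not reported here. The simulated genotypes shared 1 spread per gene, so unequal spread between genotypes was not checked. Named genes were the 10 members, the 3 called genes of smallest adjusted p per list, and the 3 genes most correlated with each member (log2 CPM with a prior count of 2, mean of at least 10 CPM). A few genes that this rule names are not reported here. Alternatives used DESeq2 1.42.0, limma 3.58.1, other scalings, filters and single pieces, and left out each animal. The variation between animals was 49.7% (biological coefficient, 1 common value for both genotypes) and between pieces 12%. The genotypes were not alike in this: 70.8% of genes differed between SB animals and 0.557% between control animals.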

Additional observations from a re-analysis of the deposited data

Results flagged for a closer look

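The piece effect of Bad had opposite signs in SB and control animals, but it passed in neither. It was 0.22 in SB animals (adjusted p 0.221 in edgeR) and -0.18 in controls (adjusted p 0.299 in edgeR). Piece 2 was above piece 1 in all 3 SB animals, by 0.12, 0.19 and 0.35 on the log2 scale, and below it in all 3 controls, by -0.13, -0.28 and -0.11. The difference, SB minus control, was 0.40 (SE 0.14), and the test of this difference did not pass after adjustment (adjusted p 0.176 in edgeR). Bad was singled out because every animal of a genotype moved the same way and the genotypes moved in opposite ways. The share of all genes with this pattern was not counted.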

How the results depend on the processing

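Leaving out an animal moved the genotype comparison most. The genes called ranged from 554 to 6409 (without control animal 2 and without SB animal 2) and the members called from 0 to 5 (3178 and 0 with all animals). The members called were 1 with library totals as the only scaling (Mcl1) and 1 in piece 1 alone (Bcl2l2), where each called 2950 genes. They were 4 with limma-voom, which called 3997 genes, and 4 with DESeq2, which called 5546. Other scalings, filters and the earlier quasi-likelihood method, which was added after seeing the data, called 0 members. Bnip3l changed sign, from 0.07 to -0.15 in piece 2 alone, and ranged from -0.22 to 0.24 with an animal left out. Bcl2l11 ranged from -0.32 to 0.02. Neither passed in any of these. The other 8 members kept their direction in all 15 alternatives.

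The replicate block pairs the pieces by animal. With no replicate block 0 genes differed between pieces, against 480 with it, and DESeq2 called 1184 genes and 2 members. With an animal left out, the piece comparison called 0 to 421 genes and 0 to 1 members, with 0 or 1 genes without SB animal 3 or any control. In SB animals, it called 0 genes with the genotype alone or the earlier method, and 0 to 725 with an animal left out (725 without SB animal 2). In controls it called 2949 genes with the genotype alone, where Bcl2l2 and Bmf took the place of Bcl2l1 and Bnip3l among the 4 members called, and 0 to 3250 genes and 0 to 6 members with an animal left out. The difference between genotypes called 0 to 534 genes and 0 to 2 members, the highest without control animal 1 and the lowest without control animal 2 or 3 or SB animal 3. Alternatives that left out animals within a genotype's piece comparison were added after seeing the data. DESeq2 called 223 genes between control animals, against 99.

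With the longest transcript as length, the SB mean share of Bcl2l1 was 34.8% and of Mcl1 53.9% (65.1% over all exons). The control means were 80.1% for Mcl1, 12.9% for Bcl2l1, 5.15% for Bcl2 and 1.82% for Bcl2l2, and the control mean log2 ratio of Bcl2l1 to Bcl2 was 1.27 in place of 0.777. Each member had at least 106 counts in every library. Whether more animals or more depth would change the calls was not tested.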
